A study of Mus musculus with 35 samples.

Results

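The Serpina3 cluster is a row of neighbouring genes on mouse chromosome 12 that encode serpins, a family of protease inhibitors. The 8 members described here, Serpina3c, Serpina3f, Serpina3g, Serpina3h, Serpina3i, Serpina3k, Serpina3m and Serpina3n, were chosen by symbol and matched to the Ensembl identifiers of the count tables, which list 52636 genes. Their levels were measured by RNA-seq in 35 libraries from 19 mice, all described as female. Cells of the basolateral amygdala had been cut out of frozen brain sections by laser capture, separately for a portion named anterior and one named posterior. The mice were C57BL/6J, an inbred strain, or B6D2F1N, a hybrid strain. They lived in standard housing or in enriched housing with daily access to a playground cage. Enriched housing started on postnatal day 77. All mice shared touchscreen training from postnatal day 70 and a test of cognitive judgement bias, so no group was behaviourally untreated. The C57BL/6J groups had 4 anterior and 4 posterior libraries in standard housing, and 2 anterior and 4 posterior libraries in enriched housing. The B6D2F1N groups had 5 and 5 libraries in standard housing, and 5 anterior and 6 posterior libraries in enriched housing. Both portions were available for 16 mice. The methods place the posterior portion at positions closer to bregma than the anterior one, the reverse of their names, and the portions are called here as the labels call them.

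The genes lie side by side in GRCm38 among 28 genes with a Serpina symbol. In order along the chromosome they are Serpina3c (ENSMUSG00000066361, 104146382 to 104153870, minus strand), Serpina3f (ENSMUSG00000066363, 104214544 to 104221129), Serpina3g (ENSMUSG00000041481, 104236245 to 104241939), Serpina3h (ENSMUSG00000041449, 104247905 to 104253669), Serpina3i (ENSMUSG00000079014, 104263122 to 104269372), Serpina3k (ENSMUSG00000058207), Serpina3m (ENSMUSG00000079012) and Serpina3n (ENSMUSG00000021091, 104406729 to 104414329), all but the first on the plus strand.

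Serpins inhibit proteases with an exposed stretch, the reactive centre loop. The protease cuts this loop, the serpin folds it into its own body, and both proteins stay locked together. Humans carry a single gene of this group, SERPINA3, which encodes alpha-1-antichymotrypsin, whereas in mice the gene has multiplied into a cluster whose copies differ most in the loop, which sets the protease that is bound. In the brain, Serpina3n is the best known copy, a secreted protein made mainly by astrocytes and raised in reactive glia.

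The loops are shown first, because in the pairs compared they were less alike, base for base, than the rest of the coding sequence. Each line gives the coding sequence of 1 loop from GENCODE release M21 transcripts on GRCm38, a reference made from C57BL/6J, with the conserved hinge in lower case and the variable stretch after it in capitals.

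Serpina3n: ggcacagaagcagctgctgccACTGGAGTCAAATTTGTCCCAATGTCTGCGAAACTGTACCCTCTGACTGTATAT
Serpina3m: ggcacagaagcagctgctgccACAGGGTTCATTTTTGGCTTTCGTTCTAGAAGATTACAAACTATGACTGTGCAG
Serpina3k: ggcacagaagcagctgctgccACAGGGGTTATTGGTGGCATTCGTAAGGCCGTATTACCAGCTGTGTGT
Serpina3c: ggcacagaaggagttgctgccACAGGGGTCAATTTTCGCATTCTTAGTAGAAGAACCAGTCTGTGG
Serpina3f: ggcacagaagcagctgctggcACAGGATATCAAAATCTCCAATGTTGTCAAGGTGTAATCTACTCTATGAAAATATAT
Serpina3g: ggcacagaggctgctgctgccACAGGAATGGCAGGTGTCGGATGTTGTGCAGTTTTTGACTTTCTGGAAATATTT
Serpina3h: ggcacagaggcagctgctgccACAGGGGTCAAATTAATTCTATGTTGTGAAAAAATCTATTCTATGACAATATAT
Serpina3i: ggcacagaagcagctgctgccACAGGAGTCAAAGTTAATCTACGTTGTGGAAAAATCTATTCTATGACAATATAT

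The hinge differed little between the members, whereas the capitals differed in every pair compared. Serpina3m and Serpina3n shared 29 of 54 aligned bases of the variable stretch (53.7%) and 1039 of 1200 bases of the rest of the reading frame (86.6%). For Serpina3m and its neighbour Serpina3k the identities were 60.4% in the loop and 93% elsewhere. Serpina3f, which was read in B6D2F1N libraries, and Serpina3i shared 68.5% of the loop and 92.2% of the rest. Among the pairs compared, Serpina3h, annotated as a transcribed pseudogene, and Serpina3i had the loops most alike, with 88.9% identity. The rest of the frame, 594 aligned bases in this pair, was 91.2% identical.

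**Figure D1:**
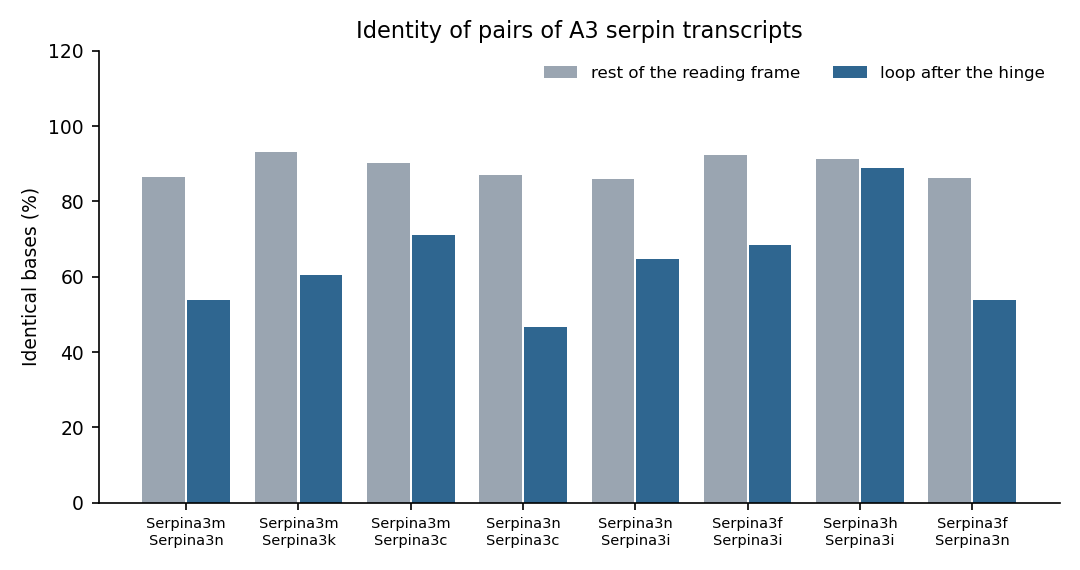
Identical bases, in percent of aligned bases, for 8 pairs of A3 serpin transcripts, with blue bars for the variable stretch of the reactive centre loop and grey bars for the rest of the reading frame. The rest lies between 86% and 93% in every pair shown, whereas the loop reaches from 46.7% (Serpina3n and Serpina3c) to 88.9% (Serpina3h and Serpina3i).

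Such similarity limits how surely a read is assigned to a gene. Of all windows of 72 bases, the read length, in Serpina3m transcripts, 30.86% matched another A3 gene with at most 2 mismatches. Most of these windows matched Serpina3k (25.31%) and few matched Serpina3n (1.13%). The share was 10.39% for Serpina3n, 12.65% for Serpina3c, 22.32% for Serpina3f, 24.32% for Serpina3g, 30.34% for Serpina3i and 36.81% for Serpina3h. Counts of the latter genes are therefore uncertain in their split between neighbours. The annotated Serpina3m model (104338486 to 104394257, plus strand) also starts at the first exon of Serpina3k (104338486 to 104346144), shares 60 exon bases with it and spans it.

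Upstream sequences are shown for Serpina3n and Serpina3c, which have nearly the same promoter and very different levels, and for Serpina3f, which was read in a single strain. They are the 250 bases before the annotated start from RefSeq (GRCm38.p6), chr12:104406458-104406707 (plus strand), chr12:104153873-104154122 (minus strand) and chr12:104214294-104214543 (plus strand). Capitals mark a match to TTCNNNGAA, the letters of a STAT motif, which was searched on both strands and is present in 7.02% of 32851 promoter windows of the table.

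Serpina3n: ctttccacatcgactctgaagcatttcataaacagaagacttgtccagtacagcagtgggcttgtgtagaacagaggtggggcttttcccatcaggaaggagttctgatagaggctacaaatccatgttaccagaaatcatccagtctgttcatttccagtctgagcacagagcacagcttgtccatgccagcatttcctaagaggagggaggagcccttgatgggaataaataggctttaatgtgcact
Serpina3c: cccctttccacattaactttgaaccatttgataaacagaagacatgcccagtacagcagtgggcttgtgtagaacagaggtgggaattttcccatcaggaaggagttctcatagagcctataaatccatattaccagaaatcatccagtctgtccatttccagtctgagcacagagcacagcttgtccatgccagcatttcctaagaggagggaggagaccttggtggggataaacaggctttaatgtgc
Serpina3f: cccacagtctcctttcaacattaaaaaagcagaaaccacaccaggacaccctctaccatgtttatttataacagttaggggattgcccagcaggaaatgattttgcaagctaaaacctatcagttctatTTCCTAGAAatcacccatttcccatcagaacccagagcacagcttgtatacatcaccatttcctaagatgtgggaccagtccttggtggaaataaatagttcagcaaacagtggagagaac

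The Serpina3n and Serpina3c windows were identical at 229 of 247 aligned bases (92.7%), against 63% for Serpina3n and Serpina3f. Of the 5 members with a window in the table, Serpina3f, Serpina3g and Serpina3i held the STAT letters and Serpina3n and Serpina3c did not. The windows of Serpina3f, Serpina3g and Serpina3i were 74.6% to 79.5% identical in pairs, so their matches are not separate occurrences. Letters of other motifs were searched too. TATAAA, present in 12.37% of promoter windows, was found for Serpina3c and in the Serpina3f window shown, and not for Serpina3n. Letters of CEBP and glucocorticoid receptor motifs were found in no member. A match is a description of letters and says nothing of binding in these cells.

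Depth was similar across libraries, with 16938534 to 27352623 gene counts each. Levels are given as CPM, gene counts brought to a common library depth with edgeR's TMM factors, and the values after ± are SDs over mice. Markers of neurons, astrocytes and oligodendrocytes were abundant in both portions. Summed over 8 genes each, astrocyte markers lay between 3500 and 7620 CPM and excitatory neuron markers between 1130 and 5710 CPM. In 1 mouse, B6D2F1N standard mouse 1, Xist, the RNA of the inactive X chromosome, had 0 counts in both portions. Xist was at 54.4 CPM or more in the other 33 libraries. The methods describe all mice, this one included, as female. Tests of the members that include this mouse were repeated without it, and the values follow beside the results. Without it, 166 genes instead of 94 passed in the standard posterior strain comparison.

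Serpina3n dominated the cluster. It held 60189 of the members' counts and was present in all 35 libraries. Serpina3g (1355 counts, 27 libraries), Serpina3m (1160 counts, 25 libraries), Serpina3h (635 counts, 27 libraries), Serpina3c (415 counts, 25 libraries), Serpina3f (239 counts, 21 libraries) and Serpina3i (179 counts, 19 libraries) followed. Serpina3k, a serpin abundant in liver, had 0 counts in every library, and a count of 0 allows up to 3 counts in each, so it was not detectable at this depth. In B6D2F1N libraries Serpina3n made up 89.6% to 96% of the members' summed CPM. In C57BL/6J libraries the share reached from 97.2% to 100% in the anterior portion and from 63.5% to 96% in the posterior portion.

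Compared per kilobase of exon, the order of mean levels in B6D2F1N libraries was Serpina3n (50.7 CPM per kb), Serpina3m (1.51), Serpina3h (0.921), Serpina3g (0.495), Serpina3c (0.32), Serpina3f (0.239) and Serpina3i (0.16). The ranges over the 21 libraries overlapped for each pair of neighbours after Serpina3n. In C57BL/6J libraries Serpina3n (23.1 CPM per kb) and Serpina3g (1.34) led, Serpina3c (0.159), Serpina3h (0.0944), Serpina3i (0.0308) and Serpina3m (0.0148) followed with overlapping ranges, and Serpina3f was at 0. The order is over both portions and was not the same in each. In posterior B6D2F1N groups Serpina3g (0.439 CPM per kb in standard and 1.15 in enriched housing) was above Serpina3h (0.394 and 0.452), and in C57BL/6J anterior libraries Serpina3g was at 0 in 4 of 6 libraries. Over all libraries Serpina3m was second in the order of B6D2F1N means and last but for Serpina3f and Serpina3k in C57BL/6J, a difference taken up next.

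The comparison of strains asks what the genetic background does to the amygdala transcriptome within 1 housing condition and portion. In standard housing, anterior Serpina3n in the C57BL/6J mice 1 to 4 was at 53, 83.3, 67.1 and 77.7 CPM. In the B6D2F1N mice 1 to 5 it was at 184, 142, 61.4, 137 and 96.1 CPM. B6D2F1N mice were higher except for mouse 3, which lay inside the C57BL/6J range. The means were 70.3 ± 13.3 CPM (n = 4) and 124 ± 46.9 CPM (n = 5), with a log2 fold change of B6D2F1N over C57BL/6J of 0.82 (standard error 0.259, edgeR adjusted p = 0.429). Without B6D2F1N mouse 1 it was 0.65 (edgeR adjusted p = 0.443).

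In the posterior portion of the same housing, Serpina3n was at 29.2, 29.9, 17.1 and 26.6 CPM in C57BL/6J mice. B6D2F1N mice 1 to 5 had 128, 109, 99.2, 38 and 48.6 CPM. The groups did not overlap. Serpina3n rose from 25.7 ± 5.89 CPM (n = 4) to 84.7 ± 39.4 CPM (n = 5), by 1.74 on the log2 scale (standard error 0.346, edgeR adjusted p = 0.048). This call was narrow, since it was lost in 7 of 9 fits that left out 1 mouse, with adjusted p from 0.0635 (without B6D2F1N mouse 1, log2 fold change 1.54) to 0.183. Only leaving out B6D2F1N mouse 4 (1.93, edgeR adjusted p = 0.00988) or mouse 5 (1.88, edgeR adjusted p = 0.0289) kept it.

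With enriched housing, the 2 anterior C57BL/6J libraries had 72.3 and 44.1 CPM of Serpina3n and the 5 B6D2F1N libraries 109, 121, 88, 184 and 110 CPM. Again the groups did not overlap, but the log2 fold change of 1.09 did not pass (standard error 0.338, edgeR adjusted p = 1). Posterior C57BL/6J mice had 78.1, 36.8, 23.2 and 28.7 CPM, and the 6 B6D2F1N mice reached from 69.3 to 118 CPM with a median of 83.5 CPM. Here C57BL/6J mouse 1 lay among the B6D2F1N values and the other 3 below them all. The log2 fold change was 1.11 (standard error 0.312, edgeR adjusted p = 0.256), and without that mouse it was 1.62 (edgeR adjusted p = 0.0104). In all 4 comparisons the B6D2F1N mean of Serpina3n was higher, and the test passed in 1 of them.

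Serpina3m had the opposite balance of level and contrast, being scarce and nearly confined to B6D2F1N libraries. The 14 C57BL/6J libraries held 7 counts of it in all, in 4 libraries and never more than 2 in 1 of them, whereas all 21 B6D2F1N libraries held between 26 and 97 counts. In the standard anterior groups, C57BL/6J mice had 0, 0, 0.0457 and 0.115 CPM, and B6D2F1N mice 4.71, 3.27, 2.09, 2.99 and 2.73 CPM. The posterior libraries of the same housing had 0 CPM in all 4 C57BL/6J mice and 3.13, 1.92, 2.46, 1.11 and 1.36 CPM in the B6D2F1N mice. No value of one strain came near those of the other.

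Enriched housing gave the same picture. The 2 anterior C57BL/6J libraries had 0 CPM, against 1.72, 3.25, 2.33, 3.8 and 3.22 CPM in B6D2F1N mice. Posterior C57BL/6J libraries had 0.087, 0, 0 and 0.108 CPM, against a lowest, median and highest value of 1.33, 2.48 and 3.28 CPM in the 6 B6D2F1N libraries. Every B6D2F1N library was above every C57BL/6J library.

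**Figure D2:**
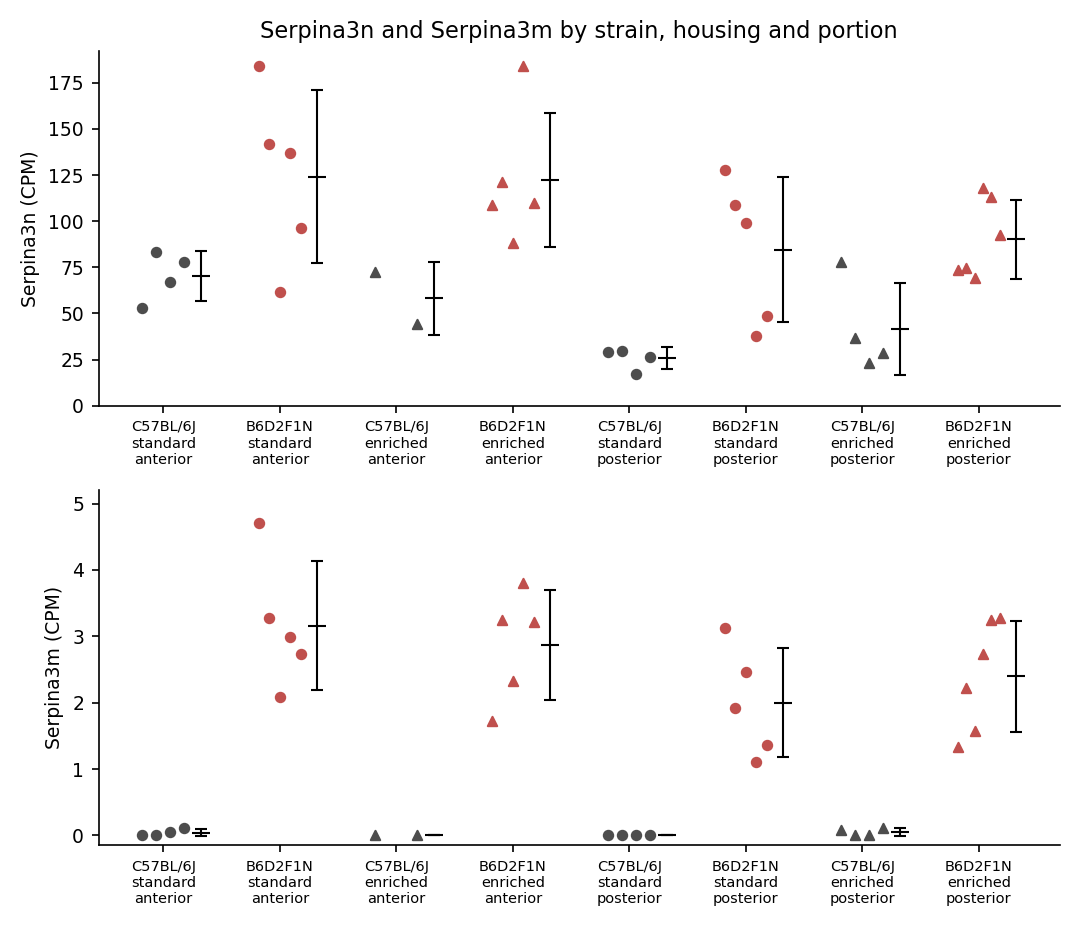
Serpina3n (top) and Serpina3m (bottom) in CPM for the 8 groups, with 1 point per library, circles for standard and triangles for enriched housing, grey for C57BL/6J and red for B6D2F1N, and bars for the mean and SD. Serpina3n overlaps between strains in 2 of the 4 pairs of groups, whereas Serpina3m stays at or below 0.115 CPM in every C57BL/6J library and at or above 1.11 CPM in every B6D2F1N library.

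Serpina3m passed the test in 3 of the 4 strain comparisons. Because C57BL/6J counts were few or absent, the size is best read from the counts. The pooled counts differed 79.1-fold in the standard anterior groups (3 against 323 counts, 95% exact binomial interval 26.8 to 386) and 50.6-fold in the enriched posterior groups (4 against 298 counts, interval 19.6 to 187). These intervals cover counting error only. Where all C57BL/6J libraries were at 0, a floor of 3 counts per library made the level in B6D2F1N mice at least 15.9-fold higher (standard posterior) and at least 19.8-fold higher (enriched anterior). The edgeR adjusted p was 0.00611 (standard anterior), 0.00932 (standard posterior) and 0.016 (enriched posterior). Enriched anterior, with 2 C57BL/6J libraries, did not pass (edgeR adjusted p = 0.302), though it did when the 4 groups of the portion were fitted together (edgeR adjusted p = 0.0226).

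Leaving out mice mattered little for the standard groups, where Serpina3m passed in every fit that left out 1 mouse, including those without B6D2F1N mouse 1 (edgeR adjusted p = 0.0203 and 0.0196). For the enriched posterior groups the call was lost without C57BL/6J mouse 2 (edgeR adjusted p = 0.0561) or B6D2F1N mouse 6 (edgeR adjusted p = 0.0509). Among all genes, few passed these strain tests, namely 0.37% of 24305 genes in the standard anterior, 0.373% of 25171 in the standard posterior, 0.0639% of 23459 in the enriched anterior and 0.394% of 25640 in the enriched posterior comparison. Of the 7 members tested in each, 1, 2, 0 and 1 passed, and these were Serpina3m and, once, Serpina3n. In the enriched anterior comparison 4 members, and 4.33% of all genes, had an unadjusted edgeR p under the same level. DESeq2 called 4, 2, 2 and 3 members, against 1.05%, 1.56%, 0.584% and 1.33% of all genes.

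Set beside each other, both genes kept a narrow ratio in B6D2F1N mice. For every 100 counts of Serpina3n there were 2.54 ± 0.508 counts of Serpina3m (n = 21), between 1.58 and 3.54. The mouse without Xist lay inside this range in both portions (2.56 and 2.44). The ratio was 2.52 ± 0.511 in the 10 anterior and 2.56 ± 0.53 in the 11 posterior libraries. By group it was 2.66 ± 0.489 (standard anterior, n = 5), 2.38 ± 0.547 (enriched anterior, n = 5), 2.48 ± 0.452 (standard posterior, n = 5) and 2.63 ± 0.62 (enriched posterior, n = 6), so that neither portion nor housing moved it by more than the spread between mice. In C57BL/6J the ratio lay between 0 and 0.375, although Serpina3n reached 83.3 CPM there, inside the B6D2F1N range. Whether the B6D2F1N reads come from Serpina3m or from a gene of similar sequence was not tested.

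**Figure D3:**
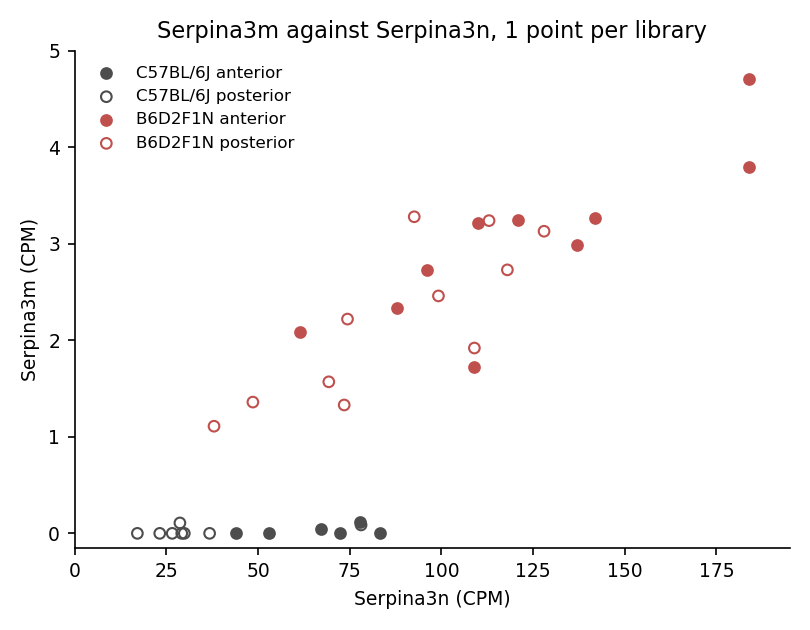
Serpina3m against Serpina3n, both in CPM, with 1 point per library, grey for C57BL/6J and red for B6D2F1N, and filled for anterior and open for posterior libraries. The 21 B6D2F1N libraries lie along a band that climbs with Serpina3n, whereas the 14 C57BL/6J libraries stay on the floor up to 83.3 CPM of Serpina3n.

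Over the 21 B6D2F1N libraries, log2 CPM of Serpina3m and Serpina3n had a Pearson's r of 0.86 (Spearman's rho 0.81), and r was 0.77 without the 2 libraries farthest from the Serpina3n median. These libraries share mice, portions and some sequence windows, so the value is a description. Serpina3n was itself the gene most like Serpina3m among 16022 genes with a mean of at least 1 CPM, followed by Nell1 (0.85), Oprk1, the kappa opioid receptor (0.84), and Cdh8, a cadherin (0.84). The 5 genes most like Serpina3n, ranked by the lower of the correlations in the 2 strains, were the pseudogene Serpina3e-ps (0.86 in C57BL/6J and 0.94 in B6D2F1N libraries), Adcy2, an adenylyl cyclase (0.87 and 0.80), Hapln4 (0.87 and 0.80), Slc35f6 (0.83 and 0.80) and Atp2a2, a calcium pump of the endoplasmic reticulum (0.83 and 0.79).

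The members at low levels differed between strains less evenly. Serpina3f was read in exactly the B6D2F1N libraries, in all 21 of them and in 0 of 14 C57BL/6J libraries. In standard housing it was at 1.26, 0.569, 0.105, 0.617 and 0.606 CPM in anterior and at 0.838, 0.348, 0.0362, 0.0427 and 0.307 CPM in posterior B6D2F1N libraries. In enriched housing it was at 0.506, 1.02, 0.504, 1.04 and 0.543 CPM in anterior libraries and reached from 0.257 to 0.813 CPM, with a median of 0.523 CPM, in posterior ones. Several of these values lie below the level of 3 counts, and 2 standard posterior libraries held 1 count each. Reads of both strains were aligned to GRCm38, the C57BL/6J reference. Whether the reads counted as Serpina3f here, or as Serpina3h below, come from these genes or from others of similar sequence was not tested.

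Against the floor of 3 counts, Serpina3f in B6D2F1N mice was higher by at least 3.9-fold in the standard anterior, at least 2.51-fold in the standard posterior, at least 5-fold in the enriched anterior and at least 3.71-fold in the enriched posterior groups. It did not pass the edgeR test in any of them (adjusted p = 0.245, 0.368, 1 and 0.128), while DESeq2 called it in the standard anterior (adjusted p = 0.026) and enriched posterior groups (adjusted p = 0.00518).

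Serpina3h had higher means in B6D2F1N mice in all 4 comparisons, without passing the edgeR test, and the groups lay farthest apart in anterior libraries. Standard anterior libraries had 0, 0, 0.183 and 0.0576 CPM in C57BL/6J mice and 3.79, 1.23, 0.627, 1.61 and 2.88 CPM in B6D2F1N mice. The pooled counts, 5 against 207, differed 30.4-fold (95% exact binomial interval 12.8 to 94.7). The enriched anterior groups had 0 and 0 CPM against 1.32, 3.79, 2.52, 2.07 and 1.2 CPM, at least 15.1-fold higher in B6D2F1N mice. Neither comparison passed (edgeR adjusted p = 0.12 and 0.588), whereas DESeq2 called both (adjusted p = 0.000407 and 0.00202). In posterior libraries the standard groups overlapped, with 0.165, 1.22, 0 and 0.0465 CPM in C57BL/6J and 0.391, 0.915, 1.12, 0 and 0.395 CPM in B6D2F1N mice (edgeR adjusted p = 0.95). Enriched posterior libraries had 0.131, 0.0971, 0 and 0 CPM in C57BL/6J mice, all below the 6 B6D2F1N libraries, which reached from 0.141 to 1.62 CPM (median 0.515 CPM, edgeR adjusted p = 0.503).

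Serpina3c appeared as all or nothing in C57BL/6J libraries, and no C57BL/6J mouse with both portions had counts in both. It had 25, 33, 25 and 24 counts in 4 libraries of this strain and 0 in the other 10, while all 21 B6D2F1N libraries had between 1 and 43 counts. Levels in the standard anterior groups were 0 in all 4 C57BL/6J mice and 1.65, 0.902, 0.314, 0.617 and 0.606 CPM in B6D2F1N mice, at least 5.05-fold higher (edgeR adjusted p = 0.134, DESeq2 adjusted p = 0.00344). The other 3 comparisons overlapped, with edgeR adjusted p from 0.932 to 1. Serpina3i was present in 3 of 14 C57BL/6J and 16 of 21 B6D2F1N libraries at up to 0.915 CPM, overlapped between strains in all 4 comparisons and did not pass (edgeR adjusted p from 0.466 to 1).

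Serpina3g, an intracellular serpin known from lymphocytes as an inhibitor of cathepsins, was the member that leaned towards C57BL/6J, in the posterior portion. Standard posterior libraries had 3.96, 4.01, 5.57 and 5.06 CPM in C57BL/6J mice and 2.12, 0.0436, 0.254, 0 and 2.2 CPM in B6D2F1N mice. These groups did not overlap, as was the case in either direction for 3.46% of all genes, and the log2 fold change was -2.33 (standard error 0.991, edgeR adjusted p = 0.47). In enriched housing C57BL/6J mice had 4.48, 1.46, 13.3 and 0.108 CPM and B6D2F1N mice reached from 0.125 to 6.48 CPM with a median of 1.28 CPM (log2 fold change -0.94, edgeR adjusted p = 0.86). Anterior libraries of both strains had at most 0.95 CPM.

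**Figure D4:**
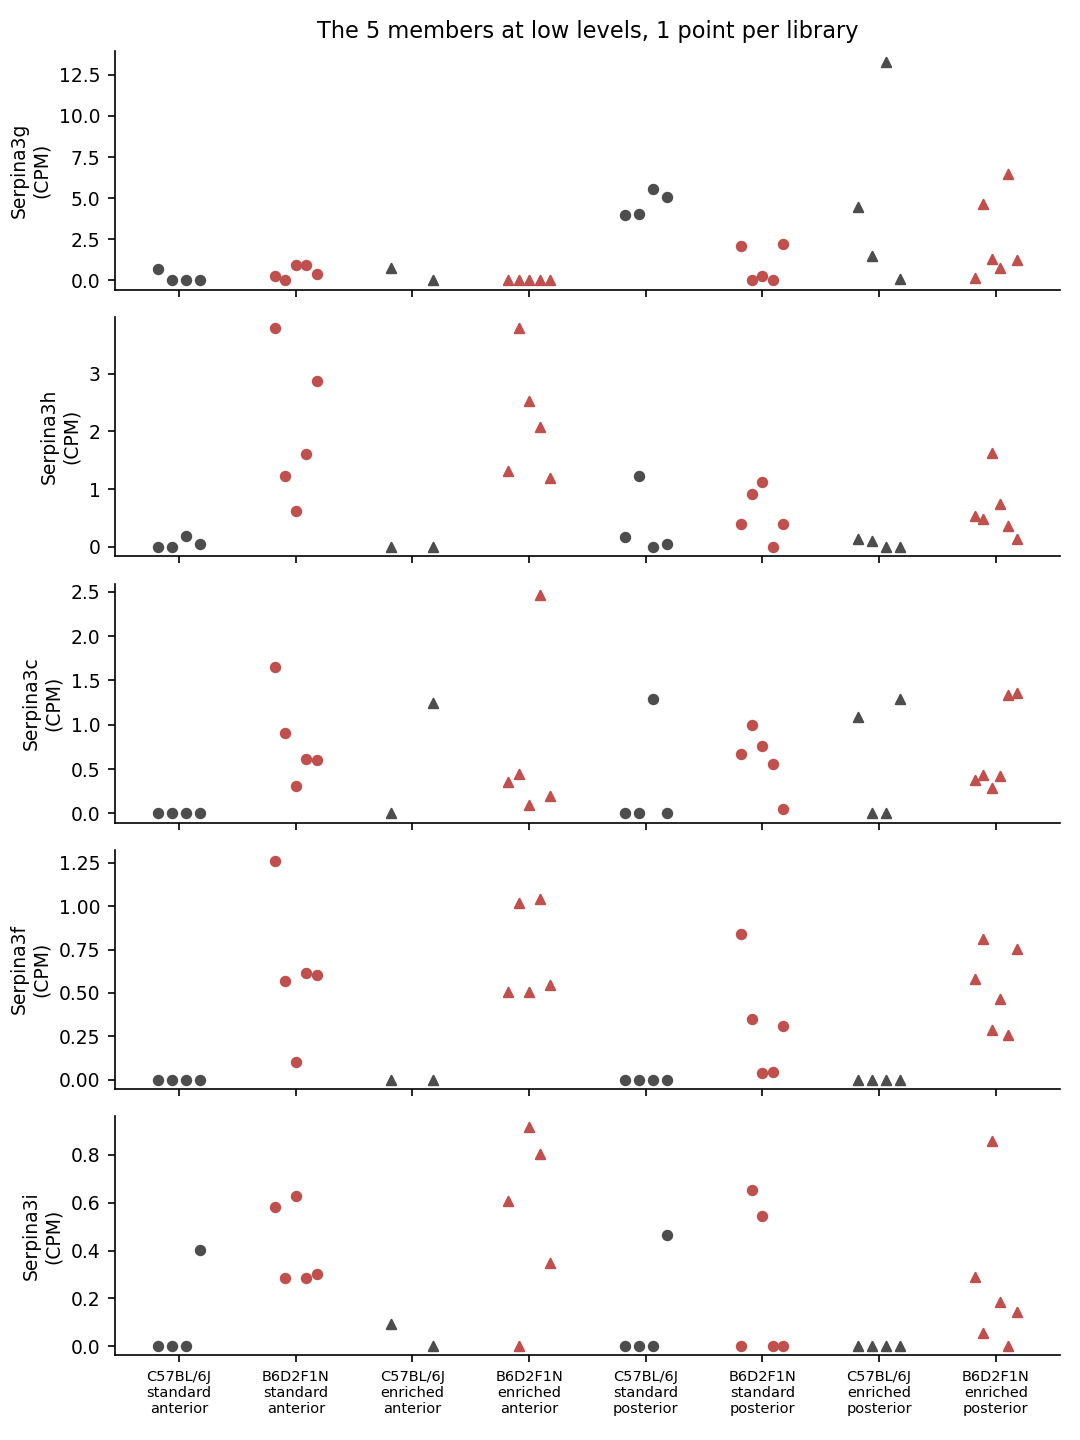
CPM of Serpina3g, Serpina3h, Serpina3c, Serpina3f and Serpina3i, from top to bottom, for the 8 groups, with 1 point per library, circles for standard and triangles for enriched housing, grey for C57BL/6J and red for B6D2F1N. Serpina3f is at 0 in all 14 C57BL/6J libraries, Serpina3h is highest in anterior B6D2F1N libraries at up to 3.79 CPM, and Serpina3g is highest in posterior libraries at up to 13.3 CPM.

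Without B6D2F1N mouse 1 the standard anterior log2 fold changes were 6.59 for Serpina3c, 6.23 for Serpina3f, 4.52 for Serpina3h, 1.77 for Serpina3g and 1.85 for Serpina3i (edgeR adjusted p from 0.248 to 0.808). In the standard posterior comparison they were 0.87, 5.19, 0.79, -2.88 and 1.38 in the same order (edgeR adjusted p from 0.337 to 0.927). As with it, none of these passed, and the sizes depend on the prior count where C57BL/6J libraries were at 0.

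Counted over the 7 members tested, 4 were higher in B6D2F1N mice without overlap in the standard anterior (Serpina3c, Serpina3f, Serpina3h and Serpina3m), 3 in the standard posterior (Serpina3f, Serpina3m and Serpina3n), 4 in the enriched anterior (Serpina3f, Serpina3h, Serpina3m and Serpina3n) and 3 in the enriched posterior comparison (Serpina3f, Serpina3h and Serpina3m). Over all genes tested, 2.04%, 2.1%, 3.16% and 1.44% separated in this direction. In all 4 comparisons Serpina3f and Serpina3m met the filter of 10 counts only through B6D2F1N libraries. So did Serpina3h where it separated, and Serpina3c in the standard anterior comparison. Such genes could separate in this direction only, so the tally is a description. The comparisons in both portions of 1 housing condition share mice and are not independent. Whether fewer cells of a type or less RNA per cell lay behind a lower level cannot be told apart in these libraries. No gene of the cell type lists passed in a strain comparison, but their medians were not all near 0. The median log2 fold change of 8 astrocyte markers lay between -0.28 and 0.09. That of choroid plexus markers was 0.56, 1.46, 1.45 and 2.84 in the standard anterior, standard posterior, enriched anterior and enriched posterior comparison. Their summed level in enriched posterior libraries was 679 ± 620 CPM (SD, n = 4) in the C57BL/6J group against 5790 ± 6500 CPM (SD, n = 6) in the other strain. The medians of these sums were 608 and 1780 CPM. The B6D2F1N mean rested on mice 1 and 3, at 13900 and 14400 CPM, while the others were at 1110 to 1790 CPM. Median log2 fold changes were -0.96 for oligodendrocyte and -0.80 for excitatory neuron markers in the enriched posterior comparison and -0.92 for meningeal markers in the standard posterior one. Their part in the strain differences of the members was not tested.

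Whether the anterior and posterior amygdala differ was asked in each strain separately, in a fit that took the 2 libraries of a mouse as a pair. In 6 C57BL/6J mice with both portions, Serpina3n was lower and Serpina3g higher in the posterior portion. Serpina3n went from 53 to 29.2, from 83.3 to 29.9, from 67.1 to 17.1 and from 77.7 to 26.6 CPM in standard mice 1 to 4, from 72.3 to 78.1 CPM in enriched mouse 1 and from 44.1 to 23.2 CPM in enriched mouse 3. It was lower in 5 of 6 mice and fell by 1.11 on the log2 scale (standard error 0.226, edgeR adjusted p = 0.00661). The call held without any 1 mouse (edgeR adjusted p from 0.00137 to 0.0436) and was lost without the mouse block (log2 fold change -0.97, edgeR adjusted p = 0.0898).

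Serpina3g climbed in all 6 of these mice. It went from 0.681 to 3.96 CPM and from 0 to 4.01, 5.57 and 5.06 CPM in standard mice 1 to 4, from 0.741 to 4.48 CPM in enriched mouse 1 and from 0 to 13.3 CPM in enriched mouse 3. No anterior value reached a posterior one. The log2 fold change was 5.77 (standard error 1.08, edgeR adjusted p = 0.00357), and its size depends on the prior count, because 4 of 6 anterior libraries had 0 counts. The call held without any 1 mouse (edgeR adjusted p from 0.00224 to 0.0213). The 2 posterior C57BL/6J libraries whose mouse had no anterior library, and which are not in this test, had 1.46 and 0.108 CPM, below the 6 tested.

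In the 10 B6D2F1N mice with both portions, the directions were alike but did not pass. Serpina3n had a lowest, median and highest value of 61.4, 116 and 184 CPM in anterior libraries and of 38, 83.5 and 128 CPM in posterior ones, and it was lower in the posterior portion of 9 mice. The log2 fold change was -0.55 (standard error 0.176, edgeR adjusted p = 0.0988). Only standard mouse 3 went the other way, from 61.4 to 99.2 CPM, and without it the change passed (-0.66, edgeR adjusted p = 0.0215). Without standard mouse 1 the value was -0.54 (edgeR adjusted p = 0.169). Serpina3g was higher in the posterior portion of 7 of 10 mice, with medians of 0.0525 and 1 CPM. Its log2 fold change was 2.80 (standard error 1.36, edgeR adjusted p = 0.335).

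**Figure D5:**
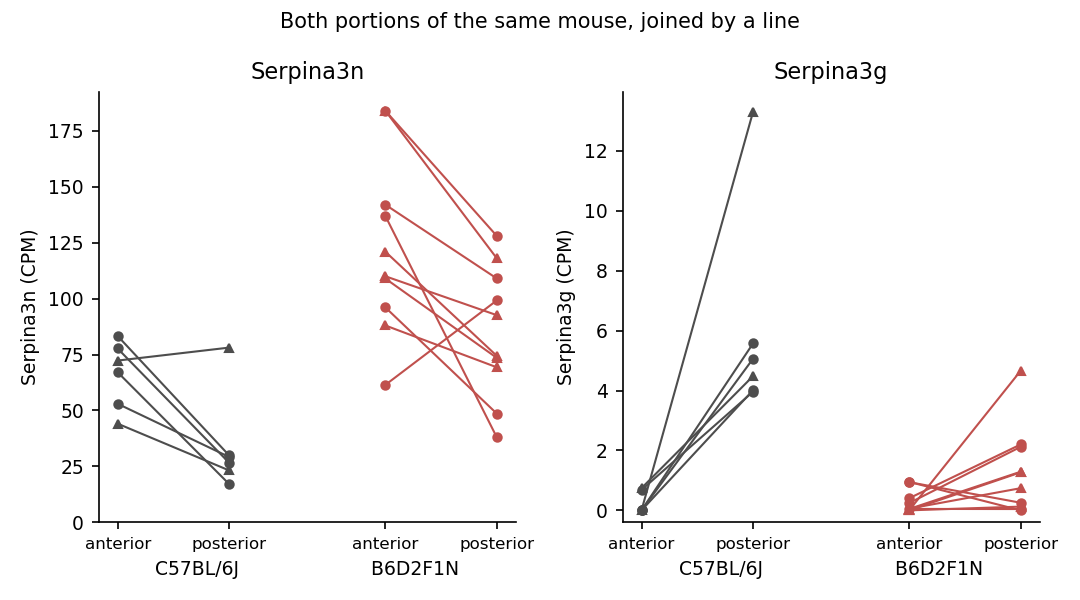
Serpina3n (left) and Serpina3g (right) in CPM in the anterior and posterior libraries of the same mouse, joined by a line, for 6 C57BL/6J mice (grey) and 10 B6D2F1N mice (red), with circles for standard and triangles for enriched housing. Serpina3n is lower in the posterior portion of 5 of 6 and 9 of 10 mice, and Serpina3g is higher there in 6 of 6 and 7 of 10 mice.

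The other members of B6D2F1N mice did not pass between portions. Serpina3h was lower in the posterior portion of 9 of 10 mice, from 2.1 ± 1.11 CPM in anterior to 0.635 ± 0.482 CPM in posterior libraries (n = 10, log2 fold change -2.00, edgeR adjusted p = 0.162, DESeq2 adjusted p = 0.027). Serpina3m was lower there in 8 of 10 mice, with 3.01 ± 0.864 and 2.11 ± 0.777 CPM (n = 10, log2 fold change -0.54, edgeR adjusted p = 0.552), close to the change of Serpina3n. The log2 fold changes were -0.12 for Serpina3c, -0.80 for Serpina3f and -1.40 for Serpina3i (edgeR adjusted p from 0.57 to 0.967). Without B6D2F1N mouse 1 of standard housing, Serpina3g (2.74), Serpina3h (-1.82), Serpina3m (-0.52), Serpina3f (-0.81) and Serpina3i (-1.03) kept their direction, Serpina3c went to 0.05, and none passed. In C57BL/6J mice Serpina3c (3.08), Serpina3h (2.07) and Serpina3i (-0.75) did not pass (edgeR adjusted p from 0.738 to 0.942), and Serpina3f, Serpina3k and Serpina3m had too few counts for a test. There 5 members were tested and 2 passed, where 3.64% of 25751 genes did, and in B6D2F1N mice 7 were tested and 0 passed, where 4% of 27761 genes did. At an unadjusted edgeR p under the same level there were 2 of the 7 in B6D2F1N mice, against 15.5% of all genes. By DESeq2 2 members passed in each strain, against 5.96% and 7.18% of all genes. The median log2 fold change over all genes was 0.013 in C57BL/6J and 0.148 in B6D2F1N mice. The change of Serpina3n was not shown to differ between strains by a test of the difference itself (0.56 higher in B6D2F1N mice, standard error 0.299, edgeR adjusted p = 1), and neither was that of Serpina3g (-3.56, standard error 2.04, edgeR adjusted p = 1).

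Posterior libraries also held RNA of tissues that border the amygdala, and choroid plexus and ependymal markers moved with the portion. Their median log2 fold changes were 3.89 and 3.48 in C57BL/6J and 6.48 and 3.70 in B6D2F1N mice. Those of the meningeal markers were 0.11 and 0.62. The summed level of 8 choroid plexus markers lay between 7.09 and 943 CPM in anterior and between 120 and 14400 CPM in posterior libraries, and that of 8 meningeal fibroblast markers between 45.4 and 121 CPM and between 57.8 and 1770 CPM. Past the threshold were 4 of 8 choroid plexus markers in C57BL/6J and 8 of 8 in B6D2F1N mice, led by Ttr, the thyroid hormone carrier of choroid plexus (log2 fold change 6.45 and 7.48), 3 and 7 of 8 ependymal markers, led by Tmem212 (7.40 and 6.62), and in each strain 1 of 8 meningeal markers, Dcn, the proteoglycan decorin (5.80 and 2.97). Of the 8 astrocyte markers, 4 rose in C57BL/6J mice, Gjb6 (0.93), Gja1 (0.73) and Agt (1.58) among them, and in B6D2F1N mice Agt rose (2.41) and Slc1a2 fell by 0.66 on the log2 scale. Excitatory neuron markers fell more often than they rose, 3 against 1 of 8 in C57BL/6J and 4 against 1 of 8 in B6D2F1N mice, with Tbr1, a transcription factor of cortical neurons, lower in both (-2.25 and -2.38). Of 8 inhibitory neuron markers 3 and 2 fell, among them Npy, neuropeptide Y (-1.67 and -1.33). Of 8 microglia markers 0 and 1 (Aif1, -0.90) fell, and 0 passed of 8 endothelial, 8 oligodendrocyte, 6 oligodendrocyte precursor and 5 blood markers. Of 8 liver markers, Ttr alone passed, which is also in the choroid plexus list.

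Beside Serpina3g, the summed levels of choroid plexus and meningeal markers were uneven. Of the meningeal markers only Dcn had passed between portions, so their sum may not stand for the list as a whole. In C57BL/6J posterior libraries the highest Serpina3g level, 13.3 CPM, came with 1380 CPM of choroid plexus and 896 CPM of meningeal markers, and the lowest, 0.108 CPM, with 197 and 750 CPM. The 4 standard libraries, at 3.96 to 5.57 CPM of Serpina3g, had 209 to 1470 CPM of choroid plexus and 945 to 1770 CPM of meningeal markers. Enriched mouse 1 (4.48 CPM of Serpina3g) had 120 and 1440 CPM, and enriched mouse 2 (1.46 CPM) had 1020 and 256 CPM. In B6D2F1N standard posterior libraries the highest Serpina3g levels, 2.2 CPM in mouse 5 and 2.12 CPM in mouse 1, came with 98.4 and 1690 CPM of meningeal and 3050 and 1450 CPM of choroid plexus markers. In enriched ones the highest, 6.48 CPM in mouse 5, came with 763 and 1720 CPM, and the lowest, 0.125 CPM in mouse 1, with 872 and 13900 CPM. The part of these tissues in the portion differences of Serpina3n and Serpina3g was not tested.

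Housing was compared within each strain and portion, and no member passed. Serpina3n had means of 70.3 ± 13.3 (n = 4) and 58.2 ± 19.9 CPM (n = 2) in standard and enriched C57BL/6J anterior libraries (log2 fold change of enriched over standard -0.29, edgeR adjusted p = 0.956). In C57BL/6J posterior libraries they were 25.7 ± 5.89 (n = 4) and 41.7 ± 24.9 CPM (n = 4), where enriched mouse 1 at 78.1 CPM stood above the other 3 (0.70, standard error 0.347, edgeR adjusted p = 0.494). In B6D2F1N mice the means were 124 ± 46.9 and 122 ± 36.3 CPM in anterior libraries (n = 5 each, -0.03, edgeR adjusted p = 1) and 84.7 ± 39.4 (n = 5) and 90.1 ± 21.3 CPM (n = 6) in posterior libraries (0.07, edgeR adjusted p = 0.999). All 4 pairs of groups overlapped. Without standard mouse 1 the B6D2F1N values were 0.16 (anterior, edgeR adjusted p = 1) and 0.25 (posterior, edgeR adjusted p = 0.954).

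Serpina3m in B6D2F1N mice differed between housing conditions by -0.15 in anterior (standard error 0.532, edgeR adjusted p = 1) and 0.24 in posterior libraries (standard error 0.469, edgeR adjusted p = 0.999), on the log2 scale, and by 0.04 and 0.44 without standard mouse 1. In B6D2F1N mice the other members differed by -0.23 (Serpina3c), 0.18 (Serpina3f), -4.36 (Serpina3g), 0.10 (Serpina3h) and 0.35 (Serpina3i) in anterior libraries and by 0.19, 0.72, 1.38, 0.17 and 0.05 in posterior ones, with edgeR adjusted p from 0.77 to 1. In C57BL/6J mice Serpina3c (6.58) and Serpina3g (1.11) could be tested in anterior libraries, and Serpina3c (0.86), Serpina3g (0.03), Serpina3h (-2.53) and Serpina3i (-4.45) in posterior ones, with edgeR adjusted p from 0.516 to 0.999. These sizes depend on the prior count where a group was at or near 0 counts. Of the 3, 5, 7 and 7 members tested in C57BL/6J anterior, C57BL/6J posterior, B6D2F1N anterior and B6D2F1N posterior libraries, 0 passed by edgeR or DESeq2. Over all genes, 0%, 0.0163%, 0% and 0% passed by edgeR and 0.437%, 1.3%, 0.0325% and 0.0499% by DESeq2. Without adjustment, 1, 0, 1 and 0 members stood under the same level of p, namely Serpina3c in C57BL/6J and Serpina3g in B6D2F1N anterior libraries, both at or near 0 counts in 1 of the groups, and 6.2%, 10.3%, 6.3% and 6.59% of all genes did. Of all the gene lists, only the oligodendrocyte markers held a gene past the threshold, Mbp, myelin basic protein, which rose in enriched C57BL/6J posterior libraries (log2 fold change 1.97, edgeR adjusted p = 0.0366).

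The dependence of the strain difference on housing was tested by an interaction term within each portion. For Serpina3n it was 0.25 (standard error 0.434, edgeR adjusted p = 1) in anterior and -0.61 (standard error 0.475, edgeR adjusted p = 0.805) in posterior libraries, as the log2 difference in enriched minus that in standard housing. Without B6D2F1N standard mouse 1 these were 0.44 and -0.42. In all, 0 of 21 interaction tests of members passed by edgeR, counting the portion by strain tests, and 4 had an unadjusted p under the same level. Over all genes 0% passed in each of these 3 models, and without adjustment 2.96% (portion by strain), 5.98% (strain by housing, anterior) and 8.38% (posterior) did. Without B6D2F1N standard mouse 1, 14 of 27764 genes passed in the posterior model, none of them a member. DESeq2 was not run for the interactions.

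None of the other genes of the pathway passed between strains. Of 60 other genes with a Serpin symbol, 22 to 29 were tested in a strain comparison and 0 passed. The same held for 20 proteases of the kinds that A3 serpins act on (11 to 13 tested), for 24 receptors and factors of acute-phase signalling (22 to 24 tested), and for 28 genes commonly raised in reactive glia (26 to 28 tested). Their median log2 fold changes lay between -0.44 and 0.25, and those of all genes between 0.016 and 0.046.

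Between portions some of them moved. Gfap, the filament protein of astrocytes, rose in the posterior portion of both strains (1.38 and 1.93, edgeR adjusted p = 0.00152 and 0.00873), as did Amigo2 (2.59 and 1.64, edgeR adjusted p = 6.63e-05 and 0.003). In all, 2 of 27 reactive glia genes tested rose in C57BL/6J, and 4 of 28 rose, C4b among them (1.40), and 1 fell in B6D2F1N mice. Among proteases, the cathepsin Ctsk fell by 2.74 in C57BL/6J mice (1 of 13 tested), and Ctsl and Ctsb fell by 0.53 and 0.48 in B6D2F1N mice (2 of 14). Of acute-phase genes, 0 of 23 passed in C57BL/6J mice and 2 of 24 fell in B6D2F1N mice, the leukemia inhibitory factor receptor Lifr (-0.78) and the interferon gamma receptor chain Ifngr2 (-0.89). Serpini1, the neuronal serpin neuroserpin, fell by 0.87 on the log2 scale in B6D2F1N mice, 1 of 31 other serpins tested there against 0 of 23 in C57BL/6J mice.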

How the data were processed

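RNA of laser-captured basolateral amygdala was sequenced as single reads of 72 bases in 35 libraries. According to the submitters' processing notes and the methods, the authors used bcl2fastq, FastQC 0.11.7, Trimmomatic 0.38, HISAT2 2.1.0, SAMtools 1.8 and HTSeq 0.11.2. The authors deposited raw counts per Ensembl gene, 1 table per library. The build is GRCm38, and the annotation release and the strand setting are not given in the sources used here. Rows that name no gene were left out. As shares of the total over gene rows and these rows, they came to 13.682% to 26.425% (no feature), 3.059% to 3.741% (ambiguous) and 6.232% to 10.934% (not unique). Of 595 pairs of libraries 0 were identical.

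The counts were tested with edgeR 4.0.16 in R 4.3.3 (quasi-likelihood test, TMM, genes with at least 10 counts in total, Benjamini-Hochberg over all genes, adjusted p at most 0.05). Strains were compared within housing and portion, housing within strain and portion, and portions within strain with the mouse as a block. The block rests on the labels and methods, which tie both portions to 1 mouse. Deviations from the group means of both libraries of a mouse had a median correlation of 0.048 (-0.105 to 0.222, 16 mice, 16022 genes). Likeness used log2 CPM with a prior count of 2. DESeq2 1.42.0, other size factors, other filters on low counts, a joint fit of 4 groups and leaving out each mouse were alternatives. In simulated counts, where 200 genes had a log2 fold change of 2, 76% were recovered for the standard anterior strain comparison (23081 genes) and 47.5% for the enriched anterior one (22062 genes), and 5.59% and 11.2% of the calls were false. The portion comparison of B6D2F1N mice recovered 72.5%, with 11.6% of the calls false. The posterior housing comparison of C57BL/6J mice recovered 64% (9.22% false) and the portion by strain interaction 68.5% (12.2% false). Every false share lay above the 0.05 set by the threshold. The portion comparison of C57BL/6J mice was not simulated. The changed genes were drawn from those with a mean above 1 CPM, so the recovery does not cover members below that level. Coding sequences were aligned with MAFFT 7.526.

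By the rule for named genes, all 8 members may be named in every comparison. Of each gene list, the genes past the threshold with the smallest p-values, at most 3, may be named, and the 5 genes most like Serpina3n and Serpina3m. Of the latter, 1 gene is not reported here. Members and lists were chosen with earlier results of these data known. Libraries of a group are different mice. Intervals and floors (3 counts) cover counting error only, because reads carried no molecular identifiers.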

Additional observations from a re-analysis of the deposited data

Results flagged for a closer look

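In 7 of 43 combinations of a member and a group of 4 to 6 libraries, 1 library stood far above the others by Dixon's criterion, which chance meets in about 1 in 20 groups of continuous values. In 4 of them the other libraries were at 0, so that any count in 1 library meets the criterion and that rate does not apply. These were Serpina3g at 0.681 CPM (12 counts) in C57BL/6J standard anterior mouse 1, Serpina3i at 0.403 CPM (7 counts) in C57BL/6J standard anterior mouse 4, Serpina3c at 1.29 CPM (33 counts) in C57BL/6J standard posterior mouse 3 and Serpina3i at 0.465 CPM (10 counts) in C57BL/6J standard posterior mouse 4. In the other 3, Serpina3c was at 2.47 CPM in B6D2F1N enriched anterior mouse 4 (next 0.445 CPM), Serpina3h at 1.22 CPM in C57BL/6J standard posterior mouse 2 (next 0.165 CPM) and Serpina3i at 0.857 CPM in B6D2F1N enriched posterior mouse 3 (next 0.291 CPM). For Serpina3m and Serpina3n 0 libraries stood apart in this way. The cause was not tested.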

How the results depend on the processing

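Of 795 recomputed values for 63 results, 737 were kept by 1 of 3 rules. Fold changes kept their direction and their side of the threshold, and counts of members stayed within 1.5 times. Group levels summed over members stayed within 1 SD of the Serpina3n mean. These sums contain Serpina3n itself, so the last rule was largely met in advance. DESeq2 called more members, namely 4 in the standard anterior, 2 in the enriched anterior and 3 in the enriched posterior strain comparison and 2 between the portions of B6D2F1N mice. With DESeq2, Serpina3m passed in the enriched anterior comparison (log2 fold change 8.37), Serpina3n in the enriched posterior comparison (1.12) and Serpina3n between the portions of B6D2F1N mice (-0.53). With 1 fit for the 4 groups of a portion, Serpina3m passed in the enriched anterior comparison (8.86), which made 1 member there. Without the replicate block of the mouse, 1 member passed between the portions of C57BL/6J mice, since Serpina3n did not (-0.97), and the block changed no other call of a member. Leaving out 1 mouse gave 1 to 2 members in the standard posterior, 0 to 2 in the enriched posterior strain comparison and 0 to 1 between the portions of B6D2F1N mice. Over these fits Serpina3n ranged from 1.54 to 1.93 in the standard posterior and from 0.90 to 1.62 in the enriched posterior comparison, Serpina3m from 5.08 to 6.09 in the latter, and Serpina3n from -0.66 to -0.40 between the portions of B6D2F1N mice. Uncalled values that changed sign when 1 mouse was left out included Serpina3c (-1.17 to 6.92 enriched anterior, -0.19 to 0.93 enriched posterior), Serpina3g (-1.53 to 0.26 enriched posterior), Serpina3n between housing conditions (-0.70 to 0.06 C57BL/6J anterior, -0.22 to 0.16 B6D2F1N anterior, -0.12 to 0.25 B6D2F1N posterior) and in the anterior strain by housing interaction (-0.08 to 0.68). Interactions of scarcer members changed sign as well, namely Serpina3f (-0.07 to 0.60), Serpina3g (-10.31 to 0.47) and Serpina3i (-2.77 to 4.45) in the anterior, Serpina3c (-6.55 to 0.05) in the posterior strain by housing model, and Serpina3i (-1.50 to 0.05) and Serpina3m (-0.90 to 1.88) in the portion by strain model. The cause was not tested. Depth limits every member but Serpina3n, since the others had libraries with few or 0 counts.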

Other observations

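Serpina3e-ps, an unprocessed pseudogene of the cluster, had 2194 counts, more than any member but Serpina3n, and was read in all 35 libraries. For every 100 counts of Serpina3n there were 3.76 ± 0.976 counts of it in C57BL/6J (SD, n = 14) and 3.74 ± 0.528 in B6D2F1N libraries (SD, n = 21), a ratio that did not separate the strains as that of Serpina3m did. Whether these reads come from the pseudogene or from a neighbour with similar sequence was not tested.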
